A study of Mus musculus with 24 samples.

Results

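Described here are 8 genes that encode receptors and ligands of the vascular endothelial growth factor (VEGF) and angiopoietin systems and 1, Eng, that encodes a BMP co-receptor of the same cells, 9 in all, in endothelial cells of the mouse brain. They were taken by symbol alone, as Flt1, Kdr, Flt4, Tek, Tie1, Angpt2, Nrp1, Eng and Vegfa, from a table of 53465 genes, and each symbol matched 1 gene. All 9 were among the 15493 genes that had 5 or more reads in at least 6 libraries of 1 genotype, which was the minimum for every test, and each of them reached 5 reads in all 24 libraries.

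Brain endothelial cells were sorted on CD31, the product of Pecam1, and RNA was sequenced from 1 mouse per library. All mice were C57BL/6J and carried the floxed Bmal1 allele. The 12 control mice (Bmal1fl/fl) had no Cre, and the 12 mutant mice (Bmal1fl/fl; Tie2cre) also had a transgene in which the promoter of Tek, a gene also called Tie2, drives the Cre recombinase that removes an exon of the clock gene Bmal1. From each genotype 2 mice were taken every 4 h from ZT2 to ZT22, where ZT0 is lights on in a 12-h light and 12-h dark cycle, to ask which transcripts of these cells follow the time of day and which depend on Bmal1. The Tek promoter is also known to be active in blood-forming cells, so that recombination need not be limited to endothelium. The labels give no age or sex for a library.

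VEGF-A is bound by VEGFR1 (encoded by Flt1), which holds the ligand tightly but signals weakly, and by VEGFR2 (Kdr), which carries most of the growth and permeability signal in endothelium. VEGFR3 (Flt4) binds VEGF-C and VEGF-D and is best known from lymphatic vessels, and neuropilin 1 (Nrp1) is a co-receptor that strengthens VEGFR2 signalling. TIE2 (Tek) keeps vessels quiescent when angiopoietin 1 from mural cells binds it, angiopoietin 2 (Angpt2) is made by endothelial cells themselves and can oppose that signal, TIE1 is a partner receptor of TIE2, and endoglin (Eng) is a co-receptor for BMP ligands that sits on the same cells.

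The promoter windows of 3 members are printed because of their place in the study: Tek because its promoter drives the Cre, and Flt1 and Kdr because they are the VEGF-A receptors whose values carry the results below. Each window runs from 250 bases before to 50 bases after a RefSeq gene start on GRCm38.p6, on the strand of the gene, 5′ to 3′, at chr4:94739039-94739338 on the plus strand for Tek, chr5:147725962-147726261 on the minus strand for Flt1 and chr5:75978406-75978705 on the minus strand for Kdr. Capitals mark GGAA or its complement TTCC, the core of the sites bound by ETS factors, and TATAAA, the TATA box.
Tek: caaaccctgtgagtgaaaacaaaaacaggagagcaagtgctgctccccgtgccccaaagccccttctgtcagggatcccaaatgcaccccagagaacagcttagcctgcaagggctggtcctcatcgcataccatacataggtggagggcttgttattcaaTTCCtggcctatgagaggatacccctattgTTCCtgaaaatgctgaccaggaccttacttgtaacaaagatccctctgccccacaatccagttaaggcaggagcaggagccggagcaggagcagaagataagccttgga
Flt1: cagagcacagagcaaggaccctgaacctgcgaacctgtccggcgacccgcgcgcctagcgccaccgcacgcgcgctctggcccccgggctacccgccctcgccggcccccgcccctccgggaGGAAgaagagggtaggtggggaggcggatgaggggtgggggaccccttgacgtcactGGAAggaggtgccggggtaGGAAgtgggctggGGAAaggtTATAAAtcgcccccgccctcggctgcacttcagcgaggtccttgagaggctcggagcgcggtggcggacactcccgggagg
Kdr: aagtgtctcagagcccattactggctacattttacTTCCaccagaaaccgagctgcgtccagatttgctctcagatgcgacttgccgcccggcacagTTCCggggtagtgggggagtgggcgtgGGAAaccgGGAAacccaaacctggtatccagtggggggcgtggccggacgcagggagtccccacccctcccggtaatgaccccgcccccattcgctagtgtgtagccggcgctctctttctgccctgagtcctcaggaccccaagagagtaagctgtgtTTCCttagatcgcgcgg

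A RefSeq window was found for 8 of the 9 members, 9 windows in all because Vegfa had 2. TATAAA, searched on both strands, was in the Flt1 window only, starting 31 bases before the gene start, while 13.6% of all 32851 windows hold it. CACGTG, the E-box letters known to be bound by BMAL1 with CLOCK, was in none of the 9 windows and in 7.15% of all windows. GGAA, counted on both strands, was in each of the 9 windows, as in 96% of all windows, with 9 matches for Tie1, 5 for Kdr, 5 for Nrp1, 4 for Flt1, 4 for Eng, 2 for Tek, 2 for Flt4, and 6 and 3 in the 2 Vegfa windows, against a median of 3. GGAA can share 1 base with CACGTG and none with TATAAA. A letter match describes the window and is no evidence of binding, and regions outside these windows were not searched.

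Library totals lay between 6136404 and 6648311 reads, already brought together by the authors' normalization. Reads of the 6 endothelial markers, Pecam1, Cdh5, Cldn5, Esam, Emcn and Erg, summed to between 2451 and 5282 counts per 1000000 reads of the library (CPM) in all 24 libraries. Markers of other cell types were present too, with only Syt1, Rbfox3 and Tubb3 of neurons and Mag and Mog of oligodendrocytes at 0 in any library, and their sums split the libraries by time point: the 6 microglia markers summed to between 163 and 272 CPM in the 8 ZT6 and ZT18 libraries and to between 1423 and 3900 in the other 16, and mitochondrial genes took 2.68 to 3.90% of the reads in the former and 5.78 to 17.4% in the latter. The 8 ZT6 and ZT18 libraries carry consecutive library numbers in the labels, so that time point and library number cannot be told apart for them. Both mutants at ZT14 and control ZT2 replicate 1 carry consecutive numbers that stand apart from those of all other libraries, so that genotype and library number cannot be told apart at ZT14. The library barcodes in the labels hold 1 of 2 second (i5) index sequences, called index sets here. At ZT2 and ZT10 both controls carry one set and both mutants the other, so that genotype and index set cannot be told apart there, and at the other times both genotypes share a set. Reads of Arntl, the gene symbol of Bmal1, ranged from 1 to 468 in controls and from 81 to 354 in mutants. These reads cover the whole gene and not the floxed exon alone, so they do not check the deletion. The difference turned with time: at ZT2 the mutants had 243 and 259 reads of Arntl against 439 and 466 in controls, at ZT10 120 and 169 against 1 and 22, and at ZT14 251 and 354 against 15 and 13. The genotype difference over the day, 0.96 on the log2 scale (SE 0.43, edgeR adjusted p = 0.639), is an average of these, and the difference in the 24-h rhythm of Arntl had an unadjusted p of 9.1e-06 (adjusted p = 0.141).

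Flt1 and Kdr, the VEGF-A receptors, and Tek were among the most abundant transcripts of these cells, with Flt1 above the rest. Levels of different genes were compared as deposited reads per kilobase of merged exons, within a mouse, in the 12 control mice. Flt1 (chromosome 5, 147561604 to 147726011, minus strand of GRCm38, as are all gene positions here) had 2584 ± 355 reads per kb (SD, n = 12), which ranked 52nd of 15481 genes with a length. Kdr (chromosome 5, 75932827 to 75978458, minus strand) had 1005 ± 305 reads per kb and ranked 157th, and Flt4 (chromosome 11, 49609263 to 49652739, plus strand) had 139 ± 25.9 and ranked 1764th. Flt1 thus held 69.3% of the reads per kb of the 3 VEGF receptor kinases. The co-receptor Nrp1 (chromosome 8, 128358604 to 128503363, plus strand) had 275 ± 70.9 reads per kb.

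In the angiopoietin system the receptors stood well above their ligand. Tek (chromosome 4, 94739289 to 94874976, plus strand) had 1200 ± 289 reads per kb and ranked 131st, and Tie1 (chromosome 4, 118471191 to 118490061, minus strand) had 569 ± 145 and ranked 307th. Eng (chromosome 2, 32646595 to 32682669, plus strand) lay beside Tek with 1147 ± 199 reads per kb. The 2 secreted ligands were lowest: Angpt2 (chromosome 8, 18690263 to 18741562, minus strand) had 61.3 ± 24.0 reads per kb and Vegfa (chromosome 17, 46016993 to 46032369, minus strand) had 26.6 ± 11.9, ranking 4260th and 7597th.

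The order of the members was therefore Flt1, Tek, Eng, Kdr, Tie1, Nrp1, Flt4, Angpt2 and Vegfa. Neighbours in this order were compared by the log2 ratio of their reads per kb within each mouse, with an exact two-sided permutation of signs and p-values adjusted over the 8 pairs. Tek and Eng did not differ beyond their spread, with a mean log2 ratio of 0.05 ± 0.29 (SD), Tek being higher in 6 of 12 mice (exact p = 0.588). Eng exceeded Kdr by 0.24 ± 0.33 on the log2 scale in 9 of 12 mice (exact permutation, adjusted p = 0.0318), a call that was lost without any 1 of 7 of the 12 mice (exact adjusted p = 0.0513 to 0.0636). Flt1 exceeded Tek by 1.13 ± 0.24 on the log2 scale in 12 of 12 mice, and the 5 pairs below Kdr were separated by 0.80 to 1.26 in 12 of 12 mice, or for Angpt2 over Vegfa by 1.24 in 11 of 12, all with an exact adjusted p of 0.00586 or less. The order and the gaps depended on the length used: per length of the longest transcript, Eng stood 0.18 above Tek, Kdr 0.13 above Eng and Nrp1 0.16 above Tie1 on the log2 scale, while Flt1 exceeded Tek by 2.08 and Nrp1 exceeded Flt4 by 1.99.

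**Figure D1:**
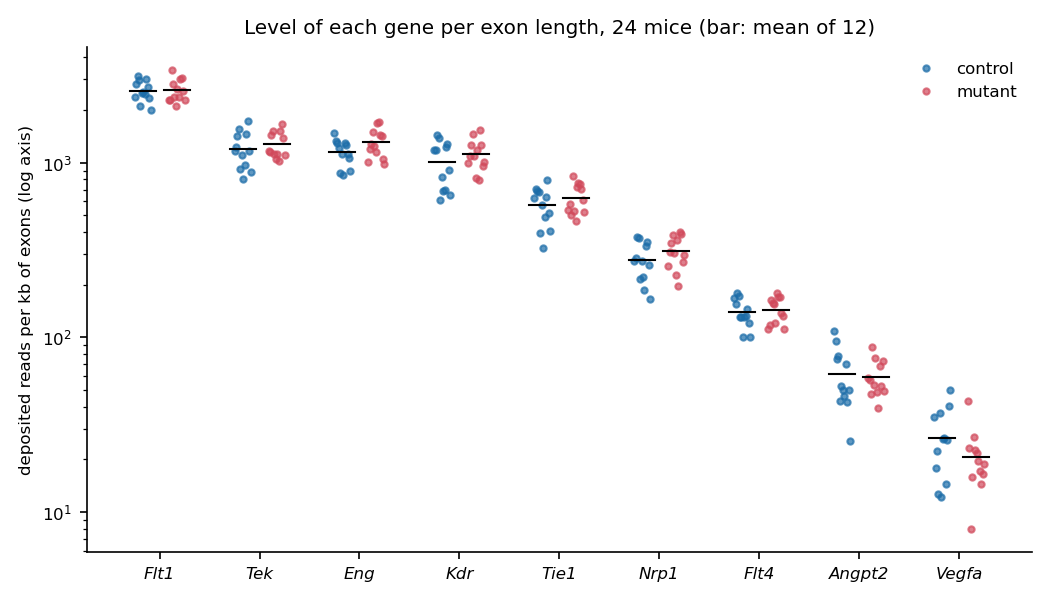
Deposited reads per kb of merged exons (log axis) for each of the 9 genes, ordered by their control mean, in 12 control mice (blue) and 12 mutant mice (red); each point is 1 mouse and each bar the mean of 12. Flt1 is highest at a control mean of 2584, Tek and Eng overlap, Vegfa is lowest at 26.6, and the 2 genotypes overlap for every gene.

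The spread between mice is given as a description. Over the 6 time points together, in controls, the coefficient of variation was smallest for Flt1, at 13.7%, followed by Eng at 17.3% and Flt4 at 18.7%. It was 24.1% for Tek, 25.5% for Tie1, 25.8% for Nrp1 and 30.3% for Kdr, and it was largest for the low ligands, at 39.1% for Angpt2 and 44.7% for Vegfa. In mutants the order was not the same: it was 15.2% for Flt1, 17.0% for Tek, 17.1% for Flt4, 18.8% for Eng, 19.8% for Tie1, 20.5% for Kdr, 21.4% for Nrp1, 24.0% for Angpt2 and 41.4% for Vegfa. Flt1 was lowest and Vegfa highest in both genotypes. The differences in spread were not tested, and they include the split of the ZT6 and ZT18 libraries described below.

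None of the 9 genes passed the test for a difference between control and mutant mice, and the fitted differences lay between -0.37 and 0.20 on the log2 scale. Genotypes were compared over all 24 libraries with the time point as a factor (edgeR quasi-likelihood test, Benjamini-Hochberg adjustment over 15493 genes). At an adjusted p under 0.05, 0 of the 9 were called, where 42 genes, 0.271% of all, were. At an unadjusted p under 0.05, 3 of the 9 fell below the threshold, against 6.95% of all genes, and DESeq2 also called 0 of the 9, where it called 99 genes.

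Tek, whose promoter drives the Cre, ran from 3794 to 8157 reads in the 12 controls (median 5490.5) and from 4840 to 7794 in the 12 mutants (median 5459.5). The mutant range lay within the control range, and the fitted difference was 0.10 on the log2 scale (SE 0.07, 95% interval -0.04 to 0.23, edgeR adjusted p = 0.839). Its partner Tie1 ran from 1590 to 3912 reads over the controls, around a median of 2936.5, and from 2286 to 4122 over the mutants, around 2924.5, a difference of 0.16 (95% interval -0.05 to 0.36). Angpt2 ran from 94 to 398 reads over the controls, around a median of 189.5, and from 145 to 326 over the mutants, around 203.5, a difference of 0.01. Its 95% interval, -0.31 to 0.33, was the widest but for that of Vegfa, the other gene with low reads.

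Among the VEGF receptors, Flt1 gave the tightest comparison. It ran from 27048 to 42278 reads over the controls, around a median of 34017.5, and from 28505 to 45752 over the mutants, around 33366.5, and the difference was 0.00 on the log2 scale (SE 0.06, 95% interval -0.12 to 0.13). Kdr ran from 5533 to 13021 reads over the controls, around a median of 9372, and from 7184 to 13887 over the mutants, around 9888. The lowest 4 Kdr values were all controls, and the fitted difference was 0.20 (SE 0.08, 95% interval 0.03 to 0.37, unadjusted p = 0.0228, edgeR adjusted p = 0.594). An exact permutation of genotypes within time points gave p = 0.0425 for Kdr. Nrp1 ran from 1610 to 3679 reads over the controls, around a median of 2665.5, and from 1929 to 3924 over the mutants, around 2986.5, with a fitted difference of 0.20 (SE 0.09, unadjusted p = 0.0340, edgeR adjusted p = 0.646; exact permutation p = 0.0584). Flt4 ran from 821 to 1469 reads over the controls, around a median of 1084, and from 917 to 1467 over the mutants, around 1201.5, a difference of 0.06 (95% interval -0.12 to 0.23).

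Eng ran from 3444 to 5948 reads over the controls, around a median of 4722.5, and from 3997 to 6933 over the mutants, around 5096, a fitted difference of 0.17 (SE 0.08, unadjusted p = 0.0441, edgeR adjusted p = 0.697; exact permutation p = 0.0514). Vegfa, the ligand, ran from 52 to 214 reads over the controls, around a median of 111.5, and from 34 to 184 over the mutants, around 82.5, and was the only member with a fitted difference below 0, of -0.37 (SE 0.22, 95% interval -0.81 to 0.07, edgeR adjusted p = 0.806). These differences are relative to the median gene. With libraries scaled by the sum of the 6 endothelial markers, which moved the median genotype difference of all genes from 0.00 to -0.14, Flt1 (-0.13), Flt4 (-0.09), Tek (-0.04) and Angpt2 (-0.13) were below 0, Kdr (0.06), Nrp1 (0.06), Eng (0.04) and Tie1 (0.02) were nearer to 0, and again 0 of the 9 were called, where 32 genes were. With the i5 index set as a term 0 of the 9 were called, where 7 genes were, but values moved by over 1.5 times for Vegfa (-0.67), Tie1 (0.28), Flt4 (0.17), Eng (0.27), Angpt2 (0.10) and Flt1 (0.05). Without the ZT6 and ZT18 libraries 0 of the 9 were called as well, where 28 genes were, with Kdr at 0.25, Tie1 at 0.22 and Flt1 at -0.04. In the ZT6 and ZT18 libraries alone most receptor differences were smaller, with Kdr at 0.08, Nrp1 at 0.12, Tek at 0.019, Tie1 at 0.018 and Flt4 at 0.03, while Flt1 was 0.08 and Eng 0.23. With the markers of other cell types as a term Kdr was 0.14, Nrp1 0.12, Tek 0.05, Tie1 0.04 and Flt4 0.02. Without control ZT14 replicate 1 Tie1 was 0.08 and Flt4 0.0063.

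**Figure D2:**
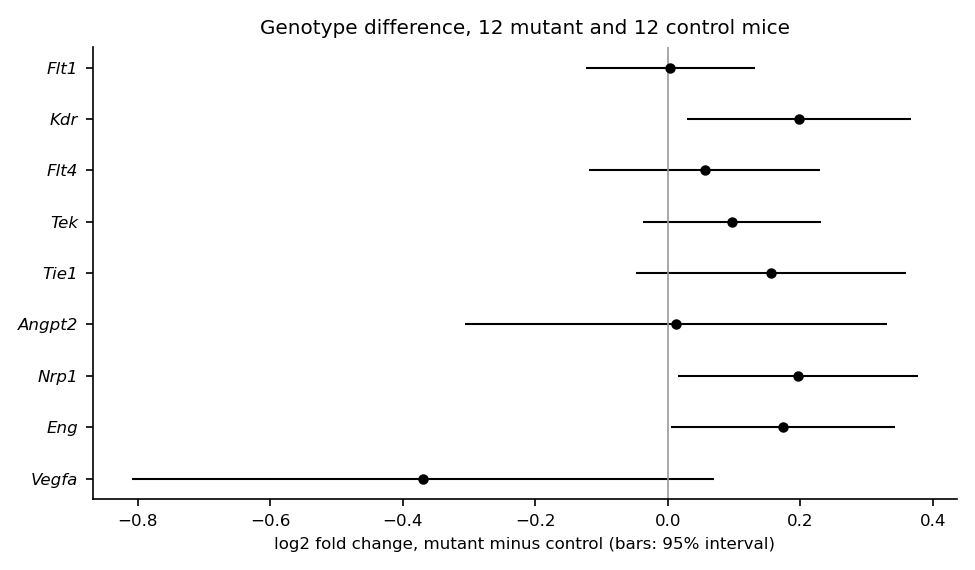
Fitted log2 fold change of each gene, mutant minus control, over 12 mutant and 12 control mice (edgeR, time point as a factor), with the 95% interval of each estimate as a bar. The intervals of Kdr, Nrp1 and Eng lie above 0 before adjustment for the number of genes, and those of the other 6 genes include 0.

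None of the 9 genes had a 24-h rhythm that passed the study's own threshold. The rhythm test was meta2d, which combines JTK_CYCLE and Lomb-Scargle at a period of 24 h, with a gene called at q under 0.6. In controls 0 of the 9 were called, where 48 of all genes (0.31%) were, and in mutants 0 of the 9 were called, where 6 genes (0.0387%) were. At an unadjusted p under 0.05 the counts were also 0 of 9 in controls, against 2.43% of all genes, and 0 of 9 in mutants, against 2.27%. An edgeR test of a 24-h cosine, fitted across all genes, gave an unadjusted p under 0.05 for 0 of the 9 in controls (5.9% of all genes) and for Flt4 and Eng in mutants (4.17%), both with an adjusted p of 1.00.

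Kdr and Tek had their highest control values at ZT6 and ZT18. For Kdr the control pairs gave 10593 and 10684 reads (ZT2), 13021 and 12404 (ZT6), 5533 and 7443 (ZT10), 6229 and 6328 (ZT14), 11018 and 11554 (ZT18), then 8151 and 5890 (ZT22). The mutant pairs gave 9028 and 9879, 11440 and 13204, 9897 and 7391, 10680 and 7184, 13887 and 11314, then 8638 and 9138 in the same order. Kdr was thus high in both genotypes at ZT6 and again at ZT18, 12 h apart. The control pairs of Tek gave 5470 and 5805 reads (ZT2), 6657 and 7344 (ZT6), 4306 and 5225 (ZT10), 3794 and 4559 (ZT14), 6835 and 8157 (ZT18), then 5511 and 4170 (ZT22), again high at ZT6 and ZT18. The relative amplitude of the 24-h cosine in controls was 3.89% for Flt1, 7.93% for Tek, 10.3% for Eng, 11.3% for Nrp1, 13.8% for Tie1, 17.5% for Flt4, 19.8% for Kdr, 27.9% for Vegfa and 34.6% for Angpt2, none of it past the test.

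By meta2d and by the edgeR cosine without an added term, Angpt2 came closest to a daily pattern in controls. Its pairs gave 398 and 349 reads (ZT2), 276 and 287 (ZT6), 160 and 194 (ZT10), 185 and 170 (ZT14), 258 and 157 (ZT18), then 185 and 94 (ZT22), so that the ZT2 mice were the highest of the 12, yet meta2d gave a q of 1.00 and edgeR an adjusted p of 0.875. In mutants the ZT2 mice read 216 and 210 and did not stand out. With an indicator for the ZT6 and ZT18 libraries added to the cosine, edgeR placed Kdr (adjusted p = 0.451), Flt4 (0.579) and Angpt2 (0.590) of the control members below the loose threshold of 0.6, where 7.2% of all genes were, and none below 0.05.

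Rhythms of the 9 genes did not differ detectably between genotypes. The interaction of genotype with the 24-h cosine and sine called 0 of 15493 genes (0%) with edgeR, with 660 genes (4.26%) at an unadjusted p under 0.05, and DESeq2 called 1 gene, not a member. Of the 9, Flt4 had an unadjusted p of 0.0284 (adjusted p = 1.00) and Eng an unadjusted p of 0.0521. With libraries scaled by endothelial markers the unadjusted p was 0.576 for Flt4 and 0.583 for Eng. Flt4 in controls read 1381 and 1276 at ZT2, 1469 and 1415 at ZT6, and 821 and 1078 at ZT14. In mutants it stood at 921 and 970 at ZT2 and at 1467 and 1402 at ZT14, so that the fitted peak was at ZT4.79 in controls and ZT12.9 in mutants. Eng read 5948 and 5388 at ZT2 and 3444 and 5253 at ZT14 in controls, and 4101 and 4868 at ZT2 and 6781 and 6933 at ZT14 in mutants, so that mutants lay below controls at ZT2 and above them at ZT14. With 2 mice a time point and no adjusted p below the threshold, these are descriptions.

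At single time points both mutants often lay to one side of both controls, and this was common among all genes too. For 6 of the 9 genes both mutants were below both controls at one time and above both at another, as for 39.5% of all genes. At ZT2 both mutants were below both controls for 6 of the 9 genes (18.8% of all genes), and at ZT6 for Flt4 alone (19.4%). Both mutants were above both controls for Angpt2 and Eng at ZT10 (15.5%), for Kdr, Flt4, Tek, Tie1 and Eng at ZT14 (26%), for Flt1, Nrp1 and Eng at ZT18 (15.4%) and for Kdr, Tie1 and Nrp1 at ZT22 (16.3%). Vegfa was below at ZT14 (14.4%) and ZT22 (14.1%). At ZT2, ZT10, ZT14 and ZT22 the endothelial markers separated in the direction of the members named there other than Vegfa, which went the other way. At ZT2 they summed to 3416 and 3837 CPM in mutants against 4177 and 4295 in controls, and at ZT14 to 4215 and 3907 against 2568 and 2823. Their sums overlapped at ZT6, with 3956 and 5043 in mutants against 4724 and 4937 in controls. At ZT18 they overlapped too, with 5282 and 5132 against 4723 and 5200. Mitochondrial reads at ZT14 were 7.89 and 10.7% in mutants against 17.4 and 15.3% in controls. With time point as a factor the interaction with genotype had an unadjusted p under 0.05 for Flt4, Tie1 and Eng, 3 of the 9 against 5.22% of all genes, and an adjusted p under 0.05 for none of them.

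**Figure D3:**
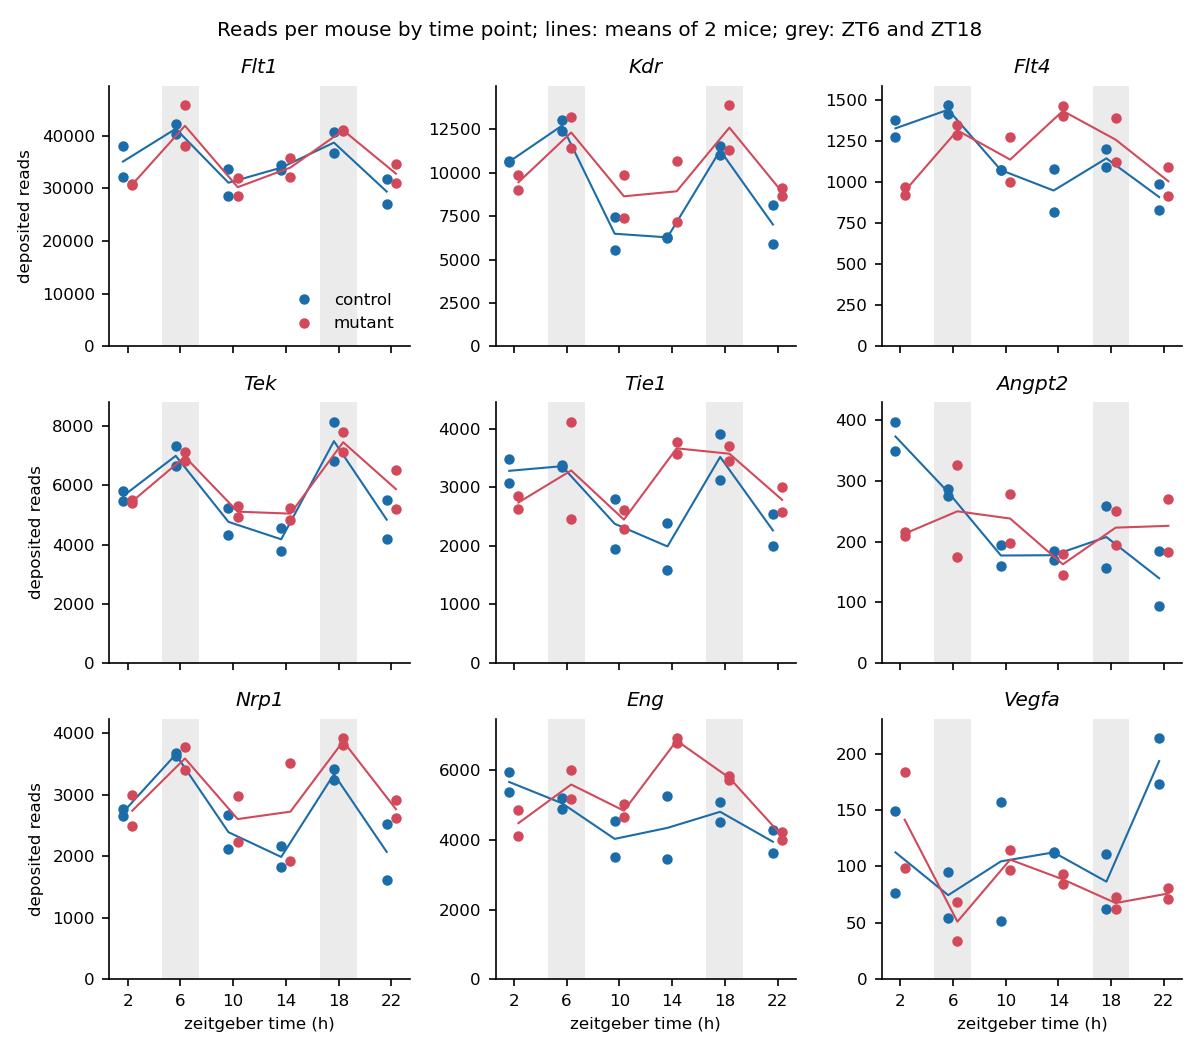
Deposited reads of each of the 9 genes against zeitgeber time in hours; each point is 1 mouse (blue control, red mutant), lines join the means of 2 mice, and grey bands mark ZT6 and ZT18. Kdr, Tek, Nrp1 and Flt1 are high in both genotypes within the grey bands, Vegfa is low there, and Flt4 and Eng separate the genotypes in opposite directions at ZT2 and ZT14.

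The clearest pattern of the receptors lay between the ZT6 and ZT18 libraries and the rest, in both genotypes. An indicator for these 8 libraries was tested beside genotype and a 24-h cosine (edgeR, adjusted over 15493 genes). Under TMM, the usual scaling, which sets libraries level over the bulk of genes, it called 6 of the 9 members: 5 were higher at ZT6 and ZT18, as were 6.4% of all genes, and 1, Vegfa, was lower, as were 11.1%. None of the 5 was called higher when libraries were scaled by endothelial markers instead. The same 8 libraries were low in markers of other cell types: 6 of 6 microglia markers (median log2 -3.98), 5 of 6 astrocyte, 5 of 5 oligodendrocyte, 4 of 4 neuron and 5 of 5 red blood cell markers were called lower, and 5 of 6 markers of pericytes and smooth muscle higher. In bulk RNA fewer cells of a type and less RNA per cell cannot be told apart.

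Kdr had between 1788 and 2263 CPM in the 8 libraries (median 1947) and between 882 and 1702 in the other 16 (median 1337). The 2 sets did not overlap, as was so in this direction for 0.29% of all genes, and Kdr was 0.58 higher on the log2 scale (SE 0.09, edgeR adjusted p = 1.56e-05). Tek had between 1081 and 1325 CPM against 571 to 1043, again without overlap, and was 1.43-fold higher (log2 0.51, SE 0.07, adjusted p = 1.54e-06). Flt1 was the third member without overlap, at 5967 to 7359 against 4223 to 5952 CPM, with a smaller fold of 1.27 (log2 0.35, SE 0.07, adjusted p = 0.000595). Of the 3 gaps that of Flt1 was the narrowest.

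Nrp1 had between 527 and 639 CPM against 251 to 561, so that the sets overlapped, and was 1.46-fold higher (log2 0.55, SE 0.09, adjusted p = 4.47e-05). Tie1 had between 394 and 671 against 239 to 592 and was 1.29-fold higher (log2 0.36, SE 0.11, adjusted p = 0.0182). Flt4 (log2 0.24, adjusted p = 0.0716), Angpt2 (0.20, adjusted p = 0.504) and Eng (0.16, adjusted p = 0.344) did not pass the threshold. Flt4 did pass without either control at ZT2 or either mutant at ZT14 (edgeR adjusted p = 0.0316 to 0.0406), and on deposited totals (0.0489). Vegfa had between 5.47 and 18.0 CPM in the 8 libraries and between 8.32 and 33.4 in the other 16, and fell by 0.74 on the log2 scale (SE 0.23, adjusted p = 0.0193), with overlapping ranges, where 2.25% of all genes had all 8 libraries below the other 16. The call of Tie1 was lost without control ZT18 replicate 2 or mutant ZT6 replicate 2 (adjusted p = 0.0525 and 0.0581), and that of Vegfa without control ZT6 replicate 2 or mutant ZT6 replicate 1 (0.0518 and 0.0539). Tested within 1 genotype, Kdr, Tek and Nrp1 passed in controls (1.79% of all genes higher) and these 3 and Flt1 in mutants (3.12% higher), while Vegfa did not pass as lower in either (5.42% of all genes lower in controls and 7.43% in mutants), at -0.68 in controls and -0.75 in mutants. In mutants all ZT6 and ZT18 libraries carry one i5 index set and all other libraries the other. The calls within mutants therefore cannot be told apart from a difference between index sets. With an added term over all libraries the calls were lost, except that of Tek with the i5 term, while several of the differences kept their direction and the errors grew. With the i5 index set as a term 798 of the 15493 genes were called, and of the members only Tek (log2 0.43, SE 0.11, adjusted p = 0.0191). Kdr was at 0.48 (SE 0.15), Nrp1 at 0.42 (SE 0.15), Flt1 at 0.32 (SE 0.12), Vegfa at -0.38 (SE 0.35) and Tie1 at 0.15 (SE 0.17). Flt4 was at 0.09 (SE 0.14), Eng at 0.0095 (SE 0.16) and Angpt2 at -0.10 (SE 0.26). The mean standardized level of the other cell types' markers was -1.166 to -0.287 in the 8 libraries. In the other 16 it was -0.090 to 0.914, so that it split the libraries as the indicator does. A fit with both can hardly tell that level from the indicator. With this mean level as a term 0 of the 9 were called, where only 143 of the 15493 genes were. Kdr was at 0.44 (SE 0.26), Flt1 at 0.35 (SE 0.20), Eng at 0.43 (SE 0.28), Tek at 0.24 (SE 0.19), Nrp1 at 0.18 (SE 0.25), Vegfa at -0.59 (SE 0.71) and Tie1 at -0.01 (SE 0.31).

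The sign of several fitted differences depended on the scaling, and of those that turned only that of Eng was called. When libraries were scaled by the 6 endothelial markers, the median difference of all genes moved from 0.00 to -0.45, 0 of the 9 were called higher (0.349% of all genes) and 2, Eng and Vegfa, were called lower (38.2%). On that scale Kdr stood at 0.15 (edgeR adjusted p = 0.155), Nrp1 at 0.11, Tek at 0.07, Tie1 at -0.06 (SE 0.09) and Flt1 at -0.08 (SE 0.10). Flt4 stood at -0.18 (SE 0.09), Angpt2 at -0.23 (SE 0.16), Eng at -0.26 (adjusted p = 0.0314) and Vegfa at -1.23 (adjusted p = 0.000416). Under TMM scaling 5 of the 6 endothelial markers were themselves called higher in the 8 libraries (median log2 0.48). Per read of the endothelial markers, Tek was 0.238 reads in the 8 libraries and 0.229 in the others at the median, with overlapping ranges. The value of Vegfa on that scale holds the shift of the median gene. The 6 astrocyte markers, from cells known to make VEGF-A, summed to 710 to 1156 CPM in the 8 libraries against 1497 to 3070. The part of other cell types in the Vegfa result was not tested.

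**Figure D4:**
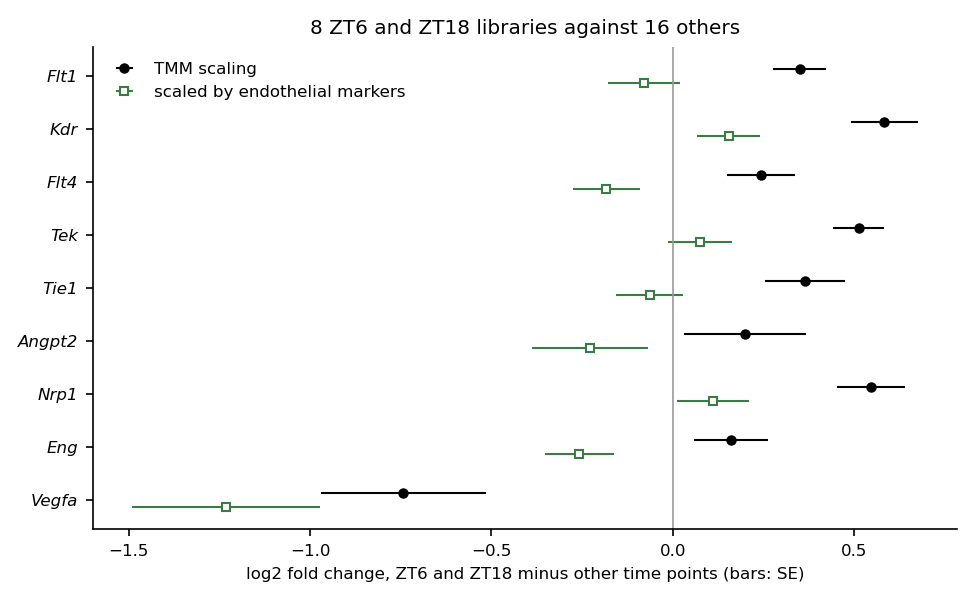
Fitted log2 fold change of each gene between the 8 ZT6 and ZT18 libraries and the 16 others, with the SE as bars, under TMM scaling (black circles) and with libraries scaled by 6 endothelial markers (green squares). Under TMM 8 of the 9 genes lie above 0, and with marker scaling Kdr at 0.15 is the highest and Vegfa at -1.23 the lowest.

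Ratios between 2 members within a library do not depend on the scaling. Kdr gave 25.0 to 34.8 reads per 100 reads of Flt1 in the 8 libraries (median 30.8) and 18.1 to 32.9 in the other 16 (median 25.8), and Tek gave 14.9 to 22.2 (median 17.8) against a median of 16.1 in the others. The 2 sets overlapped in both cases, with the higher median in the 8 libraries. Nrp1 kept pace with Kdr, at a median of 29.4 reads per 100 of Kdr in the 8 libraries and 30.2 in the others. This was not particular to that pair, as Tie1 gave a median of 8.33 reads per 100 of Flt1 against 8.32. Eng gave 11.3 to 15.9 reads per 100 of Flt1 (median 12.4) against 10.0 to 21.6 (median 13.9). By genotype, the medians per 100 reads of Flt1 were 26.4 in controls and 29.5 in mutants for Kdr, and 13.0 and 15.0 for Eng, with overlapping ranges.

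**Figure D5:**
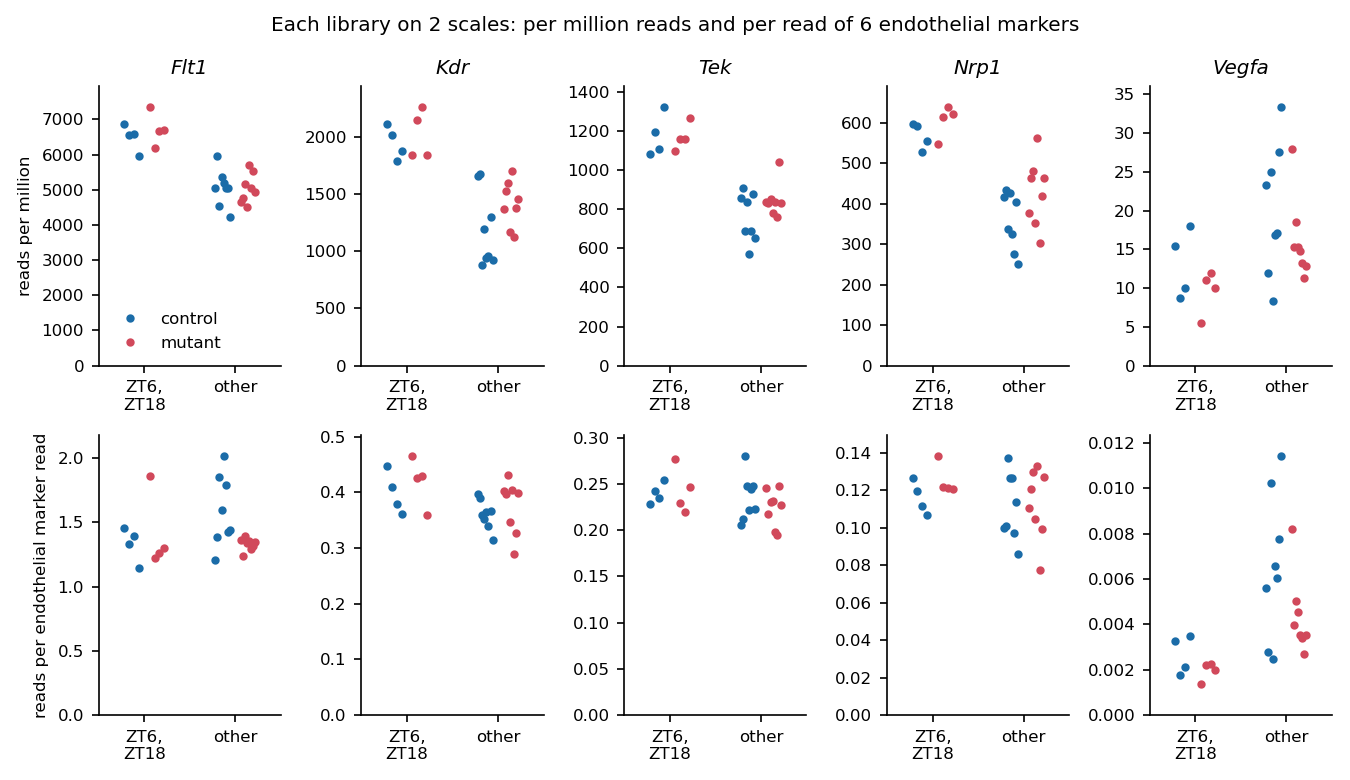
Values of Flt1, Kdr, Tek, Nrp1 and Vegfa in each library (blue control, red mutant) for the 8 ZT6 and ZT18 libraries and the 16 others, as CPM (upper row) and as reads per read of the 6 endothelial markers (lower row); all axes start at 0. On the CPM scale Kdr, Tek and Flt1 do not overlap between the sets, and per endothelial marker read every gene shown overlaps.

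Across the 24 libraries the 8 members other than Vegfa correlated positively with each other and negatively with Vegfa, but this did not hold for every pair within the ZT6 and ZT18 libraries. Pearson's r of log2 CPM, over libraries that share a table, a normalization and the split by marker content above, ranged from 0.32 to 0.92 for the 28 pairs without Vegfa (median 0.58) and from -0.71 to -0.34 for the 8 pairs with Vegfa. Kdr and Nrp1 were the closest pair, at 0.92. Within the 16 libraries outside ZT6 and ZT18 the medians were 0.43 and -0.39, the closest pair there being Flt4 and Eng at 0.87, and within the 8 libraries they were 0.28 and -0.0064. Within these 8 the pairs without Vegfa ran from -0.84 (Flt1 and Tie1) to 0.77, with Flt1 and Tek at -0.41 and Kdr and Tek at -0.38, and the pairs with Vegfa ran from -0.69 (Flt1) to 0.75 (Tie1).

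The genes whose values ran closest to a member over the 24 libraries, among 9896 genes with a mean of 50 or more reads, included several known endothelial genes. For Kdr they were Cdh5 (r = 0.94), which encodes VE-cadherin, Nrp1 (0.92) and Pecam1 (0.92), and for Tek they were Pecam1 (0.93), Cdh5 (0.93) and the taurine transporter gene Slc6a6 (0.89). Flt1 lay closest to Ptprg (0.91), Ldlrad3 (0.88) and Luzp1 (0.87), and Tie1 to Bcam (0.94), the nitric oxide synthase gene Nos3 (0.89) and Ly6e (0.87). Nrp1 lay closest to Kdr (0.92), Emcn (0.92) and Btnl9 (0.91), Flt4 to Ripor1 (0.84), Hspg2 (0.82) and Itpkb (0.81), and Eng to Cds2 (0.85), Tmem184b (0.85) and Sema7a (0.83). The low genes had looser neighbours: Rcn3 (0.72), Impdh1 (0.70) and Cd93 (0.70) for Angpt2, and Supt3 (0.77), Epsti1 (0.76) and B4galt6 (0.74) for Vegfa.

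Genes of the surrounding pathways were taken from 8 lists, and 0 genes of any list passed the genotype test (0.271% of all genes did), while 1 to 5 genes of each had an unadjusted p under 0.05 (6.95% of all genes). Of the other VEGF ligands and co-receptors, 9 of 10 were tested, with a median genotype difference of 0.09 against 0.00 for all genes. Nrp2, the neuropilin that pairs with VEGFR3, was -0.27 (unadjusted p = 0.0403) and Plxna1, a semaphorin receptor, 0.24 (unadjusted p = 0.0186), both with an edgeR adjusted p above the threshold, at 0.686 and 0.558. The genes with the smallest p-values in the lists were the collagen genes of the vessel basement membrane, Col4a1 at 0.41 (SE 0.11, adjusted p = 0.136) and Col4a2 at 0.40 (SE 0.12, adjusted p = 0.243), and the transcription factor gene Sox17 at -0.23 (SE 0.07, adjusted p = 0.270). In the angiopoietin list, 7 of 10 were tested, and Grb14, an adaptor known to bind TIE2, had the smallest p (0.28, SE 0.10, adjusted p = 0.385). The ligand genes Vegfc, Vegfd and Angpt1 were low, with control means of 86.6, 27.8 and 34.9 reads.

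At ZT6 and ZT18, under TMM scaling, each list had genes called higher, against 6.4% of all genes called higher and 11.1% lower. Of the 7 tested angiopoietin partners 1 was called higher, Ptprb (log2 0.32), which encodes VE-PTP, the phosphatase of TIE2. Of the 9 VEGF ligands and co-receptors Nrp2 (0.55) and the semaphorin receptor gene Plxnd1 (0.39) were called higher and the ligand gene Vegfb (-0.78) lower. Of the 13 genes of receptor trafficking 6 were called higher, Cav1 (0.57), the ephrin gene Efnb2 (0.53), Myo1c (0.42), Epn2 (0.33), Synj2bp (0.30) and Ephb4 (0.28), and 1 lower, Epn1 (-0.44). Of 14 genes of the endoglin and BMP pathway 7 were called higher and none lower, among them Id1 (0.64), Id3 (0.47), Smad6 (0.41) and the receptor gene Acvrl1 (0.33), together with Smad1, Tgfbr3 and Bmpr2. Of 14 transcription factor genes 7 were called higher and none lower: Sox7 (0.51), the ETS genes Erg (0.49), Ets1 (0.39), Ets2 (0.39) and Fli1 (0.36), Gata2 (0.38) and Foxc1 (0.32).

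Of 17 tip-cell and angiogenesis genes 7 were called higher, Esm1 (1.01), Plvap (0.92), Igfbp3 (0.87), Col4a1 (0.47), the Notch ligand gene Dll4 (0.45), Col4a2 (0.41) and Cd34 (0.37). Of 20 signalling genes below VEGFR2, 4 were called higher, Dusp1 (0.90), Rasip1 (0.40), Nos3 (0.33) and Fyn (0.33), and 4 lower, Ptpn6 (-3.84), Vav2 (-1.54), Pik3r1 (-0.64) and Ptpn1 (-0.38). Of these Ptpn6 is known as a phosphatase of blood and immune cells. Of 16 hypoxia genes 4 were called higher, Ddit4 (0.70), Ndrg1 (0.44), Epas1 (0.35) and Ldha (0.27), and Pdk1 (-1.21) was lower. With scaling by endothelial markers the balance turned, as it did over all genes (0.349% higher and 38.2% lower): 12 of the 20 signalling genes, 8 of the 16 hypoxia genes, 5 of the 14 transcription factor genes, 4 of the 14 endoglin and BMP genes, 3 of the 17 tip-cell genes, 2 of the 13 trafficking genes, 1 of the 9 VEGF ligands and co-receptors and 0 of the 7 angiopoietin partners were called lower. The genes of these lists still called higher were Dusp1 (0.47), Igfbp3 (0.46) and Plvap (0.50), whereas all the other genes named as higher lost the call and Ptprb, Plxnd1, Acvrl1, Ets1, Cd34 and Epas1, among others, had a value below 0. Erg, which lost the call, is itself among the endothelial markers that set this scale, so that its loss is partly built in.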

How the data were processed

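RNA from CD31-sorted brain endothelial cells was measured in 24 libraries, 1 mouse each. Per the labels and the study's methods, STAR 2.5.3a aligned the reads to GRCm38 and SAMtools 1.3.1 merged the lanes. The deposited counts are whole numbers per gene that PORT, the authors' normalization program, had brought to nearly equal totals. They were analysed as counts, and the original depth and its counting error are not in the values.

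A gene entered the tests when 6 or more libraries of a genotype held at least 5 of its reads. Tests used edgeR 4.0.16 under R 4.3.3 (quasi-likelihood fit after TMM, p-values adjusted by Benjamini-Hochberg, called below 0.05), and DESeq2 1.42.0 was an alternative. For meta2d, Python code (version 3.11.15, with SciPy 1.17.1) followed the study's period of 24 h and q threshold of 0.6. The fits were tested on simulated data, but the outcome is not given here and no result rests on it. Exon lengths came from a GENCODE annotation and promoter windows from RefSeq. Counts per 1000000 reads (CPM) were logged with a pseudocount of 1. Genes named beside the members are the targeted gene, list genes that passed a test or had the smallest p-values, and the 3 genes closest to each member. The members, lists and tests were chosen with earlier results of these data known. Replicates were separate mice.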

Additional observations from a re-analysis of the deposited data

Results flagged for a closer look

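For 6 of the 9 genes both mutant mice lay below both controls at one time point and above both at another, as for 39.5% of all genes. A difference between time points of this kind was not tested by these patterns themselves, and with 2 mice against 2 such separation was common: both mutants lay below both controls for 18.8% of all genes at ZT2 and for 19.4% at ZT6, and above them for 15.5% at ZT10, 26% at ZT14, 15.4% at ZT18 and 16.3% at ZT22. At ZT2 and ZT10 the genotypes also differ in i5 index set, and at ZT14 in the block of library numbers. All values below are differences of mean reads, mutant minus control.

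At ZT2 the 6 genes had differences of -4356 for Flt1, -1185 for Kdr, -383 for Flt4, -541 for Tie1, -160.5 for Angpt2 and -1183.5 for Eng. In the other direction Flt1 had 2337.5 at ZT18, Kdr 2653.5 at ZT14 and 1867.5 at ZT22, Flt4 485 at ZT14, Tie1 1678 at ZT14 and 522.5 at ZT22, and Angpt2 61 at ZT10. Eng had 809.5 at ZT10, 2508.5 at ZT14 and 976 at ZT18, and Flt4 was also below at ZT6, at -126. A test of genotype by time point as a factor (edgeR) gave an unadjusted p of 0.0233 for Flt4, 0.0471 for Eng, 0.0498 for Tie1, 0.0796 for Angpt2, 0.242 for Kdr and 0.665 for Flt1, with 5.22% of all genes under 0.05 and every adjusted p of these 6 at 0.945 or more.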

How the results depend on the processing

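Of the 9 genes, 0 were called for genotype, for a difference in rhythm or for a rhythm in mutants under the alternatives run, leaving out each library in turn included, and 3, Kdr, Flt4 and Angpt2, were called for a rhythm in controls under 1 alternative, the ZT6 and ZT18 indicator. These counts leave out the exact permutation of genotypes, which was not adjusted over genes and gave p = 0.0425 for Kdr. Over all genes the genotype test called 42 (DESeq2 99, no filter on low counts 141, i5 index as a term 7, markers of other cell types as a term 15, ZT6 and ZT18 libraries alone 3, and 25 to 68 when 1 library was left out). Fitted genotype differences near 0 changed sign: with the marker term Flt1 was -0.015 and Angpt2 -0.030, with endothelial scaling Flt1 was -0.13, Flt4 -0.087, Tek -0.039 and Angpt2 -0.13, without ZT6 and ZT18 Flt1 was -0.040, and with ZT6 and ZT18 alone Angpt2 was -0.016. With the i5 term Vegfa was -0.67 (-0.37 without it), Tie1 0.28 (0.16) and Flt4 0.17 (0.06). Leaving out 1 library moved Flt1 between -0.021 and 0.028, Angpt2 between -0.075 and 0.071, Flt4 between 0.0063 and 0.091 and Tie1 between 0.085 and 0.20. In the ZT6 and ZT18 libraries alone Kdr was 0.082, Tek 0.019 and Tie1 0.018, and with the marker term Tek was 0.046, Tie1 0.038 and Flt4 0.021.

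The rhythm difference called 0 of all genes, 52 without a filter, 5 without ZT6 and ZT18, 2 with time point as a factor, and 1 each with DESeq2, the i5 term, the marker term, endothelial scaling and the ZT6 and ZT18 indicator, and 0 to 1 when 1 library was left out. In controls meta2d called 48 genes, and 0 at q under 0.05. The edgeR cosine at an adjusted p under 0.6 called 344, with the indicator 1116 (3 of them members) and with a replicate block 360. Leaving out 1 control gave 0 to 57. In mutants meta2d called 6 genes, 0 at q under 0.05, 24 after TMM and 43 with 10 or more reads in every library. The edgeR cosine called 79, with the indicator 277 and with a replicate block 85, and leaving out 1 mutant gave 0 to 10.

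The comparison of ZT6 and ZT18 called 2708 genes and 6 members, and with the i5 term 798 and 1, with the marker term 143 and 0, with endothelial scaling 5967 and 2, in controls alone 1116 and 3, and in mutants alone 1635 and 4. With the i5 and marker terms Flt1 was 0.32 and 0.35 (0.35 without them) and Kdr 0.48 and 0.44 (0.58), with larger standard errors. Of the 16 other libraries 4, all controls, share the i5 set of the 8. Signs turned for Angpt2 with the i5 term (-0.10), for Tie1 with the marker term (-0.014), and with endothelial scaling for Flt1 (-0.080), Flt4 (-0.18), Tie1 (-0.064), Angpt2 (-0.23) and Eng (-0.26). Leaving out 1 library left 5 to 7 members called: Vegfa lost its call without control ZT6 replicate 2 or mutant ZT6 replicate 1 (adjusted p = 0.0518 and 0.0539), Tie1 without control ZT18 replicate 2 or mutant ZT6 replicate 2 (0.0525 and 0.0581), and Flt4 gained one without either control at ZT2 or either mutant at ZT14 (0.0316 to 0.0406), and on deposited totals (0.0489). In the order of levels, the longest transcript gave -0.18 for Tek over Eng, -0.13 for Eng over Kdr, -0.16 for Tie1 over Nrp1 (1.05 by merged exons), 2.08 for Flt1 over Tek (1.13) and 1.99 for Nrp1 over Flt4 (0.97), and the mutants gave -0.034 for Tek over Eng. Leaving out 1 control gave -0.0062 to 0.090 for Tek over Eng and 0.18 to 0.27 for Eng over Kdr, which missed the threshold in 7 of 12 cases. The causes of these changes were not tested.

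Replicate numbers 1 and 2 do not pair mice across genotypes: the differences between replicates correlated at -0.0087 to 0.015 between genotypes at the 6 time points. The replicate block called 45 genes for genotype, 0 for the rhythm difference and 2723 for ZT6 and ZT18, and changed no call of a member. With 2 mice a time point and the original depth unknown, small differences in Vegfa and Angpt2, the members with the fewest reads, may have been missed. The smallest difference that could be detected was not tested.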
